A study of Mus musculus with 2 samples.

Results

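The S100 proteins were followed in immune cells sorted from B16Ova melanoma of mice, a transplanted skin tumor line that carries ovalbumin. The set was 7 members of the S100 gene family, chosen by name with earlier results of these data known. They were S100a4, S100a6, S100a8, S100a9, S100a10, S100a11 and S100a13, and all 7 were among the 27998 genes of both count matrices. The knockout (KO) library came from female mice with E8i-cre and floxed Tcf7 alleles (E8i-cre+, Tcf7 FL/FL), and the wildtype (WT) library from females with the same floxed alleles and no Cre (E8i-cre-, Tcf7 FL/FL). The E8i-cre driver works in mature CD8 T cells; the Tcf7 product TCF1 is a DNA-binding factor typical of naive and stem-like T cells. Each library pooled cells of 3 tumors taken on day 13. Per tumor, 2000 cells were collected in each of 4 sort gates, for CD8 and CD4 T cells, for CD11c+ MHCII+ cells and for other CD45+ cells including Ly6G+ ones, and 7000 cells were loaded per channel. With 1 library per genotype and no record of the tumor of a cell, there is no replicate check and no test. All 95% intervals cover counting error only, and "higher" or "lower" in KO is called by size: a ratio of at least 1.5-fold whose interval leaves out 1, in a class with at least 50 cells in both libraries and a level of at least 50 CPM in 1 library, CPM being UMIs (unique molecules) per 1000000 UMIs of the class.

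S100 proteins are small EF-hand proteins that bind calcium as dimers and then dock onto partner proteins, mostly annexins, cytoskeletal proteins and membrane receptors. S100a4, S100a6, S100a10 and S100a11 are known as transcripts of effector and memory T cells and of many myeloid cells, and are low in naive lymphocytes. S100a8 and S100a9 form calprotectin, which is stored in the cytoplasm of neutrophils and classical monocytes and signals through Tlr4 once released.

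All 7 members lie on mouse chromosome 3 (GRCm38). In one stretch S100a13 (chr3:90514435-90524581), S100a4 (chr3:90603771-90606045), S100a6 (chr3:90612882-90624181) and S100a8 (chr3:90668978-90670035) are on the plus strand and S100a9 (chr3:90692632-90695721) on the minus strand, 181 kb from end to end. S100a11 (chr3:93520488-93526287) and S100a10 (chr3:93555080-93564643), both on the plus strand, neighbour each other farther along the chromosome. An exon of S100a4 overlaps one of Gm42674 on the same strand, so how reads of that stretch were assigned is uncertain. Promoter windows of 250 bases before and 50 bases after the start were matched in RefSeq (GRCm38.p6) for 6 of the 7 members; S100a10 was not matched. The windows shown belong to S100a4 and S100a6, with no UMI or few in naive-like T cells, and to S100a8 and S100a9, which were found in the same few cells. Each runs 5′ to 3′ along the gene, and capitals mark every match, on either strand and with overlaps counted, to TATAAA, to the CACCC box CCNCNCCC, to the C/EBP motif TTGCNNAA, to the AP-1 motif TGANTCA or to the TCF/LEF motif CTTTGA.
S100a4 (chr3:90603520-90603819, plus strand): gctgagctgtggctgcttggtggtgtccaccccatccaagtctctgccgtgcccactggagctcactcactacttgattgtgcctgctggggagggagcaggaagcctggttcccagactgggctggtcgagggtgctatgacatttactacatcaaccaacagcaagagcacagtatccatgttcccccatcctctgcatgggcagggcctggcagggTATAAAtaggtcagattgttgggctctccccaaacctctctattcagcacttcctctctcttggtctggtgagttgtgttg
S100a6 (chr3:90612644-90612943, plus strand): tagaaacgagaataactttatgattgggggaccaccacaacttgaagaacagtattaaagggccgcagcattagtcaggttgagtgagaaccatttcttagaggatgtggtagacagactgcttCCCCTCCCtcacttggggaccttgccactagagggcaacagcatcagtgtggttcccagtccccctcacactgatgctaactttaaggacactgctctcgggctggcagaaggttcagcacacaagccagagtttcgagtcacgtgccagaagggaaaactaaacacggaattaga
S100a8 (chr3:90668821-90669120, plus strand): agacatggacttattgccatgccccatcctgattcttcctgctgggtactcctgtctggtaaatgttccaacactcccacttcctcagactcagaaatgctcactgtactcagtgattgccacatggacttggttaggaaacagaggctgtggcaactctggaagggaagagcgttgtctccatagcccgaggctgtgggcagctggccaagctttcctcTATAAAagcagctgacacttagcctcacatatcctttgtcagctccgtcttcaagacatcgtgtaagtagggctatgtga
S100a9 (chr3:90695672-90695971, minus strand): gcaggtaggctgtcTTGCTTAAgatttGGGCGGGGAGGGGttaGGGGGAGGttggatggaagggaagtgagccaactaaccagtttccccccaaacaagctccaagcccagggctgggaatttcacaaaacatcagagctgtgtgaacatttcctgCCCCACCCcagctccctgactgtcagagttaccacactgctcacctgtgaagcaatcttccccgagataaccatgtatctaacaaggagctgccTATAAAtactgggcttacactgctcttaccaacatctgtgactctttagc
TATAAA occurred in the windows of S100a4, S100a8 and S100a9, and in 13.6% of all 32851 promoter windows. S100a6 held 1 match to the CACCC box, found in 49.5% of all windows, and S100a9 held 4. The C/EBP motif, found in 10.8% of windows, was matched once, in S100a9. The TCF/LEF motif, found in 16% of windows, was matched once among the 6 members, in S100a11, whose window also held 2 matches to the AP-1 motif (7.81% of windows). S100a13 matched none of the 5 motifs. A match describes these letters and is not a binding site.

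After filtering there were 1083 KO cells (median 8117 UMIs) and 983 WT cells (median 6168 UMIs), and 1 barcode string occurred in both libraries. They formed 18 clusters, named from marker genes with the S100 genes left out of the clustering and of every gate. The classes large enough to compare were CD8 T cells (184 KO, 170 WT), CD4 T cells (178 KO, 180 WT), T cells with no UMI of either co-receptor (134 KO, 117 WT), type 1 conventional dendritic cells (cDC1; 188 KO, 172 WT), type 2 (cDC2; 108 KO, 64 WT), mature dendritic cells (60 KO, 97 WT) and macrophages (62 KO, 68 WT). Monocytes numbered 85 in KO and 26 in WT, so their values are given without a call. Tcf7 itself stood at 53.1 CPM in KO CD8 T cells and 154 CPM in WT CD8 T cells (ratio 0.344, interval 0.269 to 0.438), and at 81.5 CPM in KO CD4 T cells and 123 CPM in WT CD4 T cells (ratio 0.662, interval 0.509 to 0.858). In the states described below the Tcf7 ratio was uneven. It was 0.753 in naive-like CD8 T cells (interval 0.522 to 1.08) and 0.940 in those with Gzmk or no cytotoxic gene (interval 0.511 to 1.65). CD8 effector cells had 0.329 (interval 0.197 to 0.543), and cycling CD8 T cells 0.230, under 50 CPM in both libraries. Conventional CD4 cells had 0.351 (interval 0.245 to 0.501). The class values thus do not show the same fall in every CD8 state, and the ratio in conventional CD4 cells was close to that in CD8 effector cells. Deletion and a difference in cell states cannot be told apart in these Tcf7 values. The exons that Cre removes are not given in the sources used here, and tags outside them would not show the deletion. Fewer cells with a transcript and less RNA per cell cannot be told apart in summed levels.

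S100a6, or calcyclin, a binding partner of the ubiquitin ligase adaptor Cacybp, had its highest levels in cDC2 and monocytes. It reached 3897 CPM in KO cDC2 and 3488 CPM in WT cDC2, and 3597 CPM in KO monocytes and 4005 CPM in WT monocytes. Macrophages followed with 2265 CPM in KO and 1843 CPM in WT, and cDC1 had 596 CPM in KO and 508 CPM in WT. The level in cDC2 was thus 6.54 times that in cDC1 in KO (interval 6.21 to 6.90) and 6.87 times in WT (interval 6.45 to 7.32). Among lymphocytes, CD8 T cells held 1524 CPM in KO and 1606 CPM in WT, above CD4 T cells with 806 CPM in KO and 1171 CPM in WT. NK cells, only 27 in KO and 17 in WT, held 1163 and 728 CPM. Each step in this order was larger than the counting intervals in KO, except that mature dendritic cells (1268 CPM) and NK cells overlapped; in WT, mature dendritic cells (1216 CPM) and CD4 T cells overlapped. Melanoma cells in the sort, 13 in KO and 20 in WT, had 19.3 CPM in KO and 1385 CPM in WT, where a single cell gave 154 of the 161 UMIs.

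S100a4, which binds nonmuscle myosin, divided the dendritic cells most sharply. It stood at 222 CPM in KO cDC2 and 247 CPM in WT cDC2, but at 14.4 CPM in KO cDC1 and 12.7 CPM in WT cDC1. The cDC2 level was 15.4 times the cDC1 level in KO (interval 11.3 to 21.5) and 19.4 times in WT (interval 13.6 to 28.5). With every cell thinned to 2000 UMIs, 35.2% of KO cDC2 and 25.8% of WT cDC2 had a UMI of S100a4, against 1.60% of KO cDC1 and 2.35% of WT cDC1. Unthinned, the shares were 81.5% and 79.7% in cDC2 and 9.04% and 11.05% in cDC1. Within cDC1 the gene was not evenly spread: cycling cells had 32.7 CPM in KO and 29.6 CPM in WT, and the others 8.17 CPM in KO and 8.93 CPM in WT, from 26 and 15 UMIs in cycling cells. Mature dendritic cells, which carry Ccr7 and Fscn1, had S100a4 at 152 CPM in KO and 162 CPM in WT, between monocytes (197 and 254 CPM) and macrophages (112 and 93.3 CPM). The neighbours in this KO order overlapped from cDC2 through CD4 T cells (81.5 CPM). B cells had no UMI of S100a4 in either library, but were only 9 in KO and 7 in WT. Their 38357 and 20210 UMIs are too few to place them in this order.

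S100a10, also called p11, does not need calcium and joins annexin A2 at the plasma membrane, where the complex binds plasminogen. It ran high in every T, NK, cDC2, monocyte and macrophage class and low in cDC1 and mature dendritic cells. CD8 T cells had 1159 CPM in KO and 1319 CPM in WT, and cDC2 1130 CPM in KO and 866 CPM in WT. In cDC1 the level was 207 CPM in KO and 226 CPM in WT, and in mature dendritic cells 142 CPM in KO and 265 CPM in WT. Mature dendritic cells combined this low S100a10 with high annexin A2: Anxa2 had 1484 CPM in KO and 1345 CPM in WT mature dendritic cells, and 1144 and 1341 CPM in cDC2. In cDC1 both were lower than in cDC2, with Anxa2 at 701 CPM in KO and 659 CPM in WT. The fall was larger for S100a10, whose cDC2 level was 5.46 times the cDC1 level in KO and 3.83 times in WT. In mature dendritic cells S100a10 was lower than in cDC2 and its partner was not.

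S100a11, a partner of annexin A1 and other annexins, was high in all 3 dendritic cell classes. It had 1341 CPM in KO cDC2 and 1504 CPM in WT cDC2, and 1141 CPM in KO cDC1 and 1419 CPM in WT cDC1. Mature dendritic cells had 1089 and 1070 CPM, and monocytes 941 and 763 CPM. CD8 T cells had 782 CPM in KO and 752 CPM in WT, and CD4 T cells 660 CPM in KO and 832 CPM in WT, below all 3 dendritic cell classes of the same library. S100a13, which takes part in the export of proteins that lack a signal peptide, such as Fgf1, had its highest levels in T cells, although the intervals of nearly all neighbours in its order overlapped. Its levels were 261 CPM in KO and 269 CPM in WT CD8 T cells and 234 CPM in KO and 326 CPM in WT CD4 T cells, against 132 CPM in KO and 133 CPM in WT cDC1. In cDC2 it stood at 145 CPM in KO and 162 CPM in WT.

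**Figure D1:**
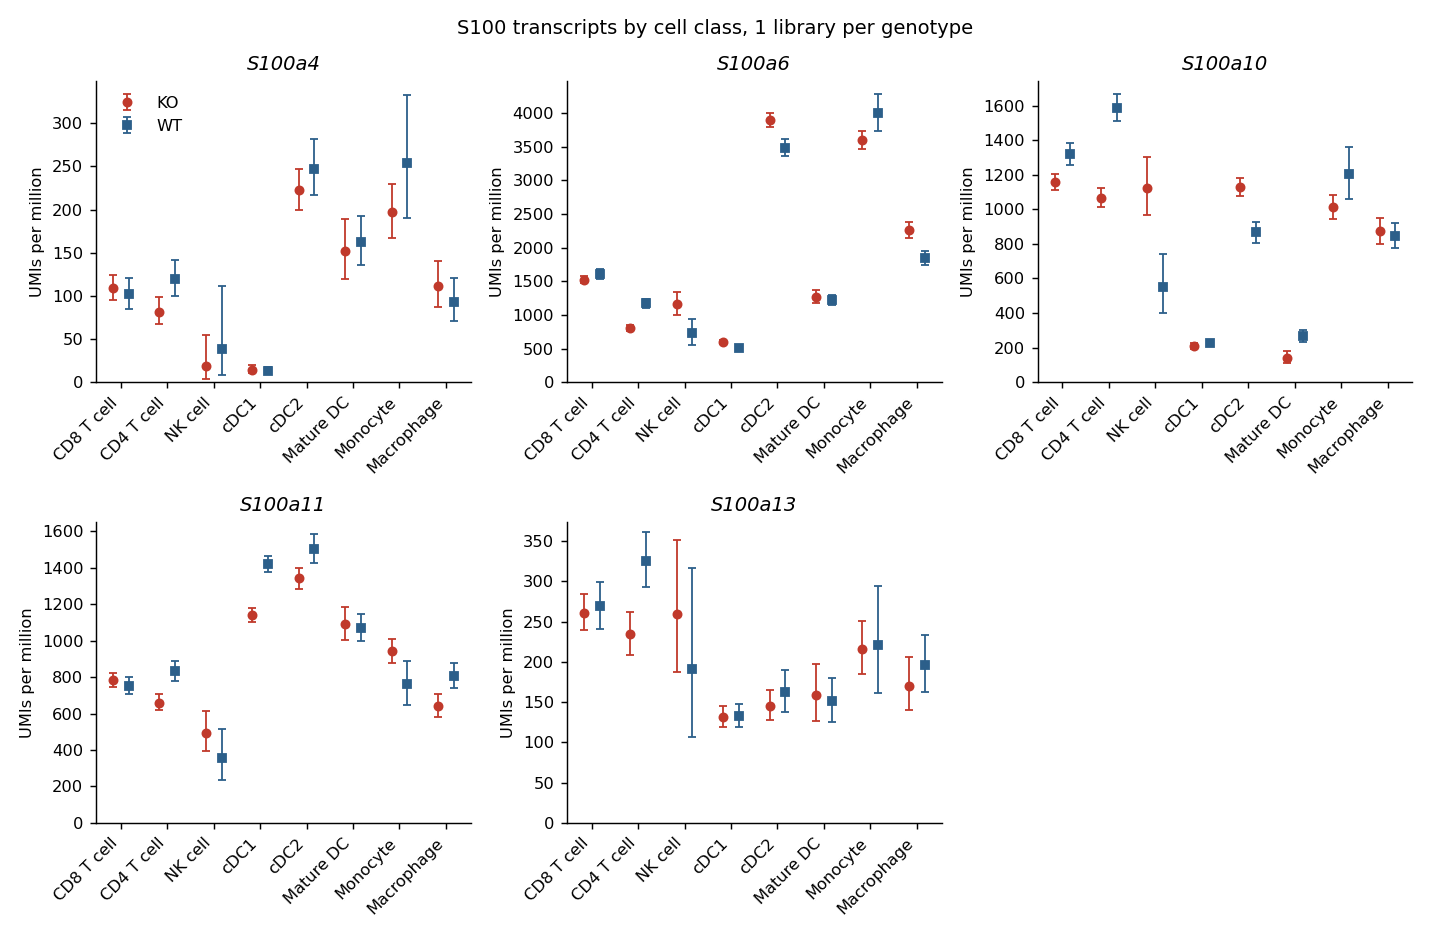
Level of 5 S100 transcripts by cell class, in CPM on a linear axis from 0, for the KO library (red circles) and the WT library (blue squares); bars are 95% Poisson intervals of the summed counts. S100a6 and S100a4 peak in cDC2 and monocytes, S100a10 is low in cDC1 and mature dendritic cells, and S100a11 is high in all 3 dendritic cell classes.

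S100a8 and S100a9 were found in 13 barcodes in all, 6 of 1219 in KO and 7 of 1120 in WT before filtering. The KO barcodes held 269 UMIs of S100a8 and 252 of S100a9, and the WT barcodes 155 UMIs of S100a8 and 271 of S100a9. A single KO cell held 400 of the 521 KO UMIs of both genes (76.8%), and a single WT cell 189 of the 426 WT UMIs (44.4%). None of 516 KO T cells and none of 489 WT T cells had a UMI of either gene, which allows up to 0.581% and 0.613% of T cells with a UMI at these depths and does not limit the share of cells expressing the genes. T cells are a class that should lack both genes, and no B, NK, dendritic or melanoma cell had a UMI of them.

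In the KO library the leading cell had 193 UMIs of S100a8 and 207 of S100a9 among 3033 UMIs, with 5 UMIs of G0s2 and 2 of Lcn2, both neutrophil markers, and none of C1qa. These were 2 of the 11 neutrophil markers, and this cell had no UMI of Csf3r, Cxcr2, Retnlg or Mmp9. A second had 63 and 37 UMIs among 11444, with 32 UMIs of C1qa, a complement gene of macrophages. The third had 7 and 8 UMIs, and the other 3 KO cells, all in the monocyte cluster, had 4, 1 and 1 UMIs of S100a8 and none of S100a9. In the WT library the 5 cells with both genes had 71 and 118, 38 and 67, 23 and 21, 12 and 21, and 9 and 44 UMIs of S100a8 and S100a9, and 2 more had 1 UMI of S100a8. The WT cell with 38 and 67 UMIs carried 7 of the 11 neutrophil markers, including 23 UMIs of Retnlg. Cells with at least 2 of the 11 markers held 80.0% of the KO UMIs and 89.2% of the WT UMIs of both genes. The leading KO cell gave 400 of the 417 KO UMIs in this count. Of the 17 KO and 10 WT cells with at least 2 markers, 4 in each library had a UMI of either gene. All cells with both genes fell into the macrophage cluster, and no cluster of neutrophils formed.

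**Figure D2:**
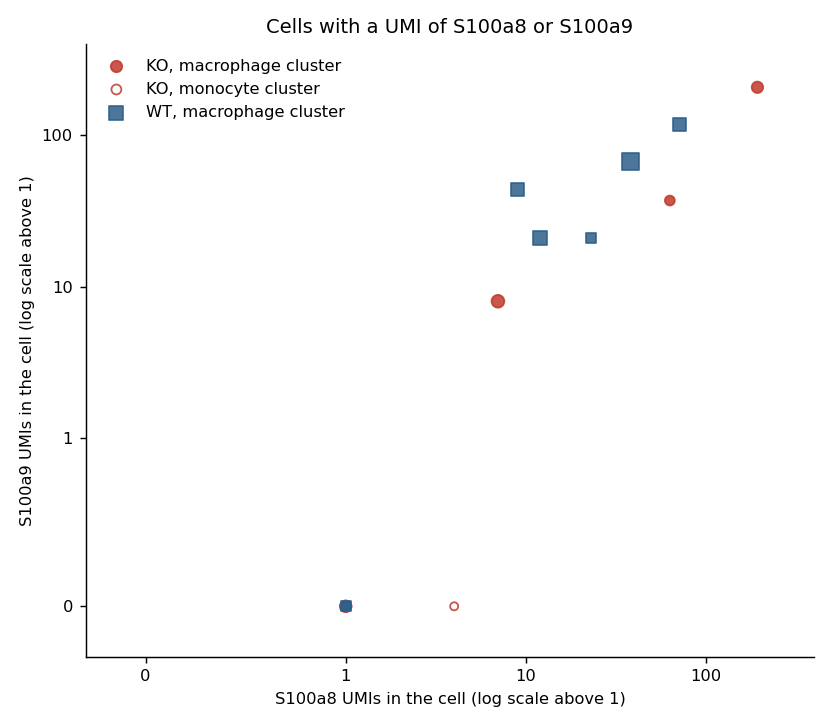
UMIs of S100a8 (x axis) against S100a9 (y axis) in each cell with a UMI of either gene; both axes are logarithmic above 1, circles are KO and squares WT, filled marks lie in the macrophage cluster and open marks in the monocyte cluster, and larger marks carry more neutrophil markers. Several cells overlap at 1 UMI of S100a8 and 0 of S100a9, and the KO cell with 193 and 207 UMIs lies far from the others.

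These few cells set both levels in the macrophage cluster. S100a8 averaged 407 CPM in KO and 245 CPM in WT there, a ratio of 1.66 (interval 1.36 to 2.04), and was called higher in KO. Across that cluster 5.09% of the 2905 measured genes were called higher and 11.8% in either direction. The log2 ratio of 0.73 becomes -0.29 without the top cell of each library and -0.15 as the mean of the levels of each cell, and it is 1.21 without cells of at least 2 neutrophil markers, so its direction depends on which of these few cells are counted. S100a9 had 390 CPM in KO and 428 CPM in WT (ratio 0.911, interval 0.765 to 1.09). In monocytes, S100a8 had 6 UMIs in 85 KO cells and none in 26 WT cells. Other members were spread widely in the macrophage cluster, with S100a6 in 74.2% of KO and 79.4% of WT cells.

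Across T cell states the members separated naive-like from antigen-experienced cells in both libraries. The naive-like cluster, led by Lef1, Satb1 and Dapl1, held 42 KO and 41 WT CD8 T cells. Outside it and the cycling cluster, CD8 T cells with a UMI of Gzmb or Prf1 are called effector cells here (94 KO, 64 WT); this gate depends on depth, and median depths of all CD8 T cells were 6474 UMIs in KO and 4788 UMIs in WT. S100a6 had 1966 CPM in KO effector cells and 2564 CPM in WT effector cells. In naive-like CD8 T cells it had no UMI in KO and 15 UMIs in 5 of 41 WT cells, or 81.4 CPM. In KO the effector level was 109.7-fold higher than a floor of 3 UMIs over the naive-like cells. The lower limit of the interval of this KO ratio, from the observed 0 UMIs, was 89.1. In WT the effector level was 31.5-fold higher than in naive-like cells (interval 19.0 to 56.4).

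S100a4 had no UMI in naive-like CD8 T cells of either library. In effector cells it stood at 147 CPM in KO and 122 CPM in WT, 8.19-fold and 7.52-fold higher than a floor of 3 UMIs (lower limits of the intervals 6.58 and 5.95). S100a11 differed by 9.08-fold in KO (868 CPM in effector and 95.6 CPM in naive-like cells) and by 12.2-fold in WT (1057 and 86.8 CPM). S100a10 was present in naive-like cells, at 466 CPM in KO and 385 CPM in WT, and was 2.86-fold higher in KO effector cells and 4.63-fold higher in WT effector cells. S100a13 showed a difference of similar size, 2.57-fold in KO and 2.93-fold in WT. S100a4 and S100a6 were thus at or near 0 in naive-like CD8 T cells, while S100a10, S100a11 and S100a13 were present at lower levels, S100a11 with a UMI in 13 of 42 KO and 14 of 41 WT cells.

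Shares of cells told the same order at equal depth. Thinned to 2000 UMIs, 80.2% of KO effector cells and 86.9% of WT effector cells had a UMI of S100a6, against 0 of 40 KO naive-like cells and 4 of 38 WT naive-like cells. Unthinned, the effector shares were 86.2% in KO and 95.3% in WT. CD8 T cells without a UMI of S100a6 numbered 63 in KO and 53 in WT, of which 66.7% and 67.9% lay in the naive-like cluster. Outside that cluster such cells were shallower, with median depths of 3653 UMIs in KO and 4287 UMIs in WT, against 12730 and 5532.5 UMIs where S100a6 was found, and the part of depth was not tested. S100a4 was rarely seen without S100a6: 75 KO cells outside the naive-like cluster had both and 2 had S100a4 alone, and 52 WT cells had both and 1 had S100a4 alone. S100a6, the more abundant transcript, was seen alone in 46 KO and 60 WT cells, and neither gene in 19 and 16. In CD4 T cells outside the naive-like cluster 10 KO and 9 WT cells had S100a4 alone, beside 43 and 55 with both.

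The remaining CD8 T cells had S100a6 between these states. Cells with Gzmk or with none of the 3 cytotoxic genes numbered 16 in KO and 50 in WT and had S100a6 at 845 CPM in KO and 1286 CPM in WT, and S100a11 at 272 and 504 CPM. Cycling CD8 T cells (32 KO, 15 WT) had S100a6 at 1302 CPM in KO and 1095 CPM in WT, below the effector cells of both libraries: the ratio of cycling to effector cells was 0.662 in KO (interval 0.613 to 0.716) and 0.427 in WT (interval 0.378 to 0.481). S100a11 in cycling cells matched the effector level in KO (863 CPM, ratio 0.994, interval 0.897 to 1.10) and was below it in WT (793 CPM, ratio 0.750, interval 0.643 to 0.872). S100a4 in cycling cells was at 83.7 CPM in KO (ratio to effector cells 0.570, interval 0.417 to 0.772) and 134 CPM in WT (ratio 1.09, interval 0.723 to 1.63). Annexin A2, the S100a10 partner, had 1105 CPM in KO and 976 CPM in WT effector cells and 12.0 and 21.7 CPM, from 2 and 4 UMIs, in naive-like cells, where S100a10 itself was present.

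In CD4 T cells S100a4 and S100a6 were again at or near 0 in naive-like cells. The naive-like CD4 cells (32 KO, 21 WT) had no UMI of S100a4 in either library, and 0 UMIs of S100a6 in KO and 1 UMI in WT. S100a10 stood at 238 CPM in KO and 407 CPM in WT naive-like cells, from 27 and 31 UMIs. CD4 T cells with a UMI of Foxp3, the master transcription factor of regulatory T cells, numbered 32 in KO and 61 in WT and had S100a6 at 1734 CPM in KO and 1501 CPM in WT. The other CD4 cells outside the naive-like cluster, called conventional here (114 KO, 98 WT), had 543 CPM in KO and 953 CPM in WT. The Foxp3 level of S100a6 was 3.19 times the conventional level in KO (interval 2.83 to 3.61) and 1.57 times in WT (interval 1.40 to 1.77). As the mean of the levels of each cell, S100a6 was at 1584 CPM in Foxp3 and 673 CPM in conventional cells in KO. In WT these means were 1556 and 932 CPM. No Foxp3 value is given here without the KO CD4 T cell that led S100a6, described below, and the part of that cell was not tested. S100a10 was also higher in Foxp3 cells, 1.32 times in KO (interval 1.18 to 1.48) and 1.47 times in WT (interval 1.33 to 1.63). S100a13 separated the CD4 states less clearly: conventional over naive-like cells was 1.64 in KO (interval 0.988 to 2.93) and 1.86 in WT (interval 1.11 to 3.33), and Foxp3 over naive-like cells 1.93 in KO (interval 1.13 to 3.51) and 1.38 in WT (interval 0.824 to 2.47).

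**Figure D3:**
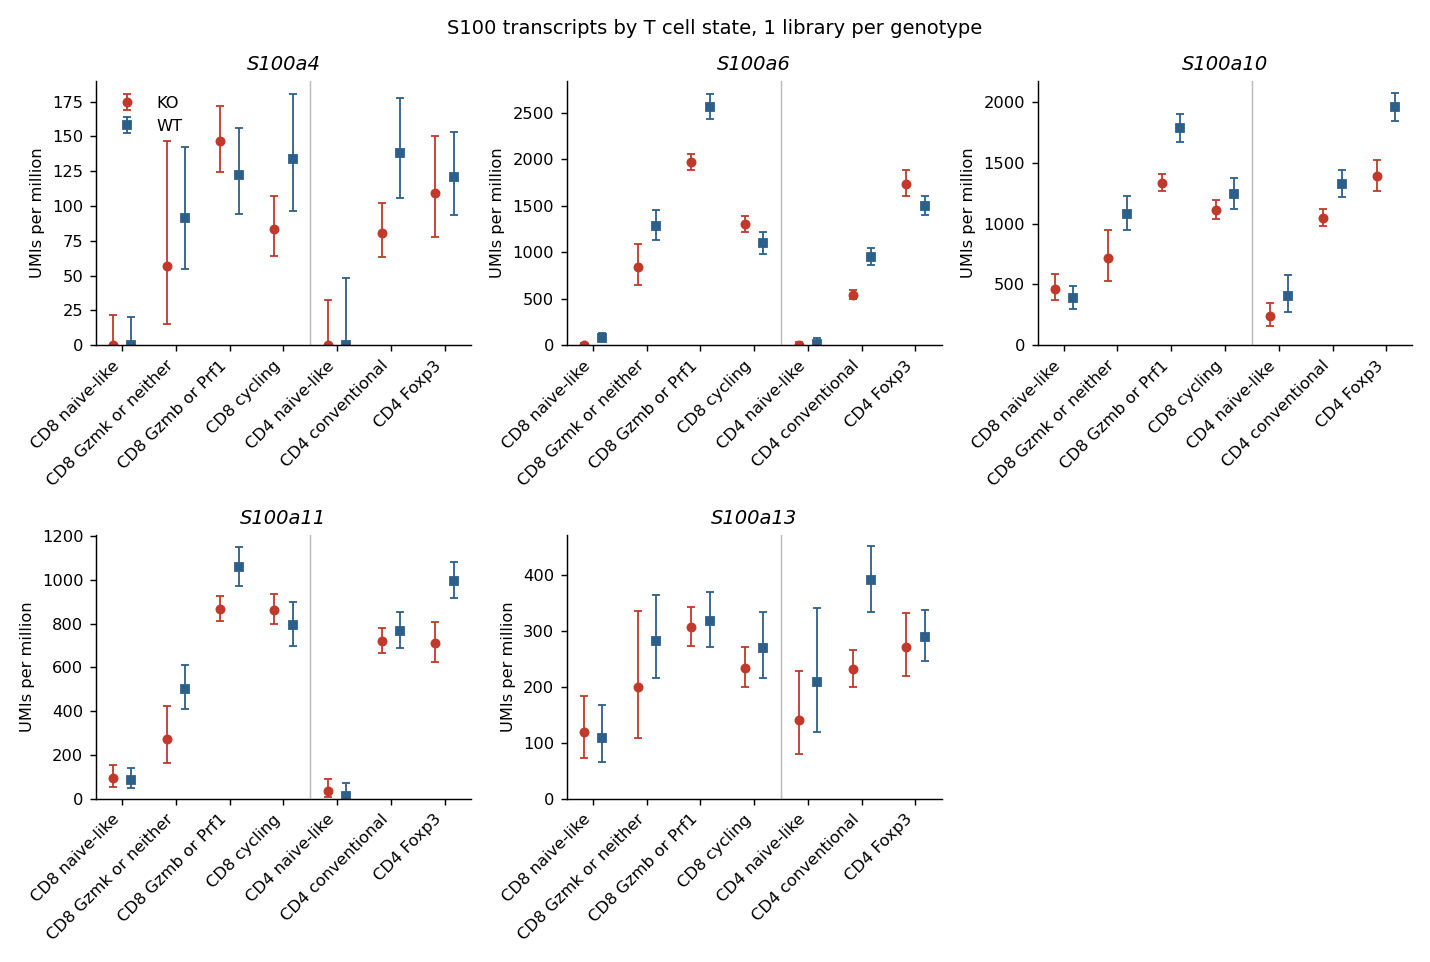
Level of 5 S100 transcripts by T cell state, in CPM on a linear axis from 0, CD8 states left of the grey line and CD4 states right of it, for KO (red circles) and WT (blue squares) with 95% Poisson intervals. S100a4 and S100a6 lie at or near 0 in naive-like cells and S100a10 does not; the state of CD8 cells with Gzmk or neither gene rests on 16 KO cells.

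Between genotypes, CD8 T cells showed no called member, where 12.1% of 2743 measured genes were called in either direction. The KO to WT ratio was 1.07 for S100a4 (interval 0.854 to 1.34), 0.949 for S100a6 (interval 0.896 to 1.004) and 0.879 for S100a10 (interval 0.825 to 0.937). S100a11 and S100a13 had ratios of 1.04 and 0.970. Within effector cells, where 10.2% of genes were called, S100a6 (ratio 0.767, interval 0.716 to 0.822), S100a10 (0.748, interval 0.688 to 0.813) and S100a11 (0.822, interval 0.739 to 0.914) stood below WT by less than the 1.5-fold rule, and S100a4 had a ratio of 1.20 (interval 0.891 to 1.63). Cells of the cluster led by Prf1, Xcl1 and Nrgn gave 79.8% of the UMIs of KO effector cells and 63.5% of those of WT effector cells. All CD8 T cells of that cluster had S100a6 at 1761 CPM in KO and 2518 CPM in WT, and S100a10 at 1198 and 1842 CPM. In the cluster led by Gzma and Gzmk the direction was the other way. Its CD8 T cells had S100a6 at 2624 CPM in KO and 2062 CPM in WT, and S100a10 at 1721 and 1386 CPM. The pooled ratios thus do not hold for each cluster. Tcf7 in the same effector cells was at 26.7 CPM in KO and 81.0 CPM in WT. Whether this make-up has a part in the S100 values was not tested.

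Splitting CD8 T cells outside the naive-like cluster by a UMI of Tcf7 separated S100a11 most. KO cells without Tcf7 had 874 CPM of S100a11 and KO cells with it 535 CPM, and WT cells had 1039 CPM without and 543 CPM with Tcf7. S100a6 had 1687 CPM without and 1406 CPM with Tcf7 in KO, and 1923 and 1777 CPM in WT. In KO, cells without a Tcf7 UMI were deeper (median 14286 UMIs, against 4785 UMIs with one), and in WT the medians were 6069 and 4764 UMIs. What depth contributes to this split was not tested.

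In CD4 T cells all 5 measured members stood below WT in KO, at ratios of 0.672 to 0.793 with intervals that left out 1. The share of all measured genes with such an interval, without the 1.5-fold rule, is not given here. None of the 5 reached 1.5-fold, where 5.40% of the 3037 measured genes were called lower and 9.68% in either direction. Without the top cell of each library, a KO cell with 17.4% of the KO UMIs of S100a6 among them, S100a6 was called lower there (log2 ratio -0.74). S100a6 had a ratio of 0.688 (interval 0.634 to 0.747), S100a10 0.672 (interval 0.627 to 0.722), S100a4 0.682 (interval 0.524 to 0.887), S100a13 0.719 (interval 0.616 to 0.840) and S100a11 0.793 (interval 0.722 to 0.871). The median log2 ratio of the 5 was -0.54, and that of all measured genes -0.01. At 2000 UMIs per cell (168 of 178 KO and 164 of 180 WT cells), 43.5% of KO and 57.3% of WT cells had a UMI of S100a6, and 70.2% and 84.1% had one of S100a10. Unthinned, these shares were 55.1% and 65.6% for S100a6, and 81.5% and 87.8% for S100a10.

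The make-up of the CD4 class differed as well. Naive-like cells were 18.0% of KO and 11.7% of WT CD4 T cells. Without them the ratios were 0.700 for S100a6 and 0.683 for S100a10, with the other differences in make-up left in place. Cells of the Foxp3-led cluster were 20.8% of KO and 32.2% of WT CD4 T cells. Within conventional CD4 cells S100a4 (ratio 0.585), S100a6 (0.570, interval 0.499 to 0.651) and S100a13 (0.593) were called lower, where 9.73% of 3186 genes were, and 20.2% were called in either direction. Without cycling cells none of these was called, and S100a6 had a log2 ratio of -0.51 instead of -0.81. As the mean of the levels of each cell none was called either, with log2 ratios of -0.47 for S100a6, -0.46 for S100a4 and -0.39 for S100a13. In Foxp3 cells, too few in KO for a call, S100a6 had a ratio of 1.16 (interval 1.04 to 1.28), while S100a10 had 0.710 (interval 0.637 to 0.791) and S100a11 0.715. As the mean of the levels of each Foxp3 cell, S100a6 was at 1584 CPM in KO and 1556 CPM in WT, and S100a10 at 1637 and 2073 CPM. The Foxp3 ratio of S100a6 is not given without the leading KO CD4 T cell for that gene, so it may rest in part on a single cell. Monocyte markers summed to 1887 CPM in KO Foxp3 cells (9 of 9 seen) and 1192 CPM in WT ones (6 of 9 seen, Vcan, Fn1 and F13a1 at 0). The conventional group was itself unlike between libraries: cycling cells gave 38.4% of its UMIs in KO and 16.3% in WT, and the cluster led by Cd40lg and Il7r 24.5% in KO and 57.6% in WT. The cluster led by Prf1, Xcl1 and Nrgn, where a CD8 co-receptor was seen in more cells than Cd4, gave 24.8% in KO and 11.6% in WT. These were 18 KO and 4 WT cells. Another 12 KO and 8 WT cells lay in the Foxp3-led cluster but had no UMI of Foxp3. Tcf7 in conventional CD4 cells was at 62.7 CPM in KO and 179 CPM in WT. Macrophage markers summed to 27.7 CPM in KO CD4 T cells (6 of 8 seen, Apoe and Adgre1 at 0) and 71.7 CPM in WT CD4 T cells (7 of 8 seen, Mrc1 at 0). The cDC1 markers summed to 108 CPM in KO CD4 T cells (4 of 8 seen, Xcr1, Clec9a, Cadm1 and Tlr3 at 0) and 210 CPM in WT CD4 T cells (7 of 8 seen, Cadm1 at 0). Monocyte markers summed to 850 CPM in KO (9 of 9 seen) and 890 CPM in WT (6 of 9 seen, Vcan, Fn1 and F13a1 at 0). In naive-like CD8 T cells the same list summed to 1213 CPM in KO and 771 CPM in WT. Only 2 of 9 were seen there, Ly6c2 and Plac8. The sum of this list is thus not particular to monocytes, in Foxp3 cells or in the class. For cDC2 markers the sums were 28.4 CPM in KO (6 of 8 seen, Cd209d and Ear2 at 0) and 38.6 CPM in WT. There 4 of 8 were seen, with Cd209a, Mgl2, Clec10a and Cd209d at 0. More monocyte and cDC2 markers were thus seen in KO than in WT. The part of these differences in the S100 values was not tested.

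T cells without a co-receptor UMI had S100a4 (56.0 CPM in KO, 95.4 CPM in WT), S100a6 (578 and 916 CPM) and S100a11 (466 and 737 CPM) called lower in KO, with ratios of 0.587 (interval 0.355 to 0.963), 0.631 (interval 0.543 to 0.734) and 0.633 (interval 0.534 to 0.749). In this class 9.23% of 3132 genes were called lower and 13.9% in either direction. S100a10 had a ratio of 0.752 and S100a13 of 0.729, both uncalled. Naive-like cells were 40.3% of its KO cells and 23.1% of its WT cells. The cDC1 markers summed to 41.6 CPM in its KO cells (3 of 8 seen, with Xcr1, Clec9a, Cadm1, Wdfy4 and Ifi205 at 0) and 281 CPM in its WT cells (6 of 8 seen, with Xcr1 and Cadm1 at 0), and their part in these values was not tested. With the naive-like cells left out, no member of this class was called, and S100a6 had a log2 ratio of -0.44 instead of -0.66. The 3 calls were also lost at a clustering resolution of 1.5 (S100a6 at -0.24) and with totals lacking ribosomal and mitochondrial genes (S100a6 at -0.57).

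**Figure D4:**
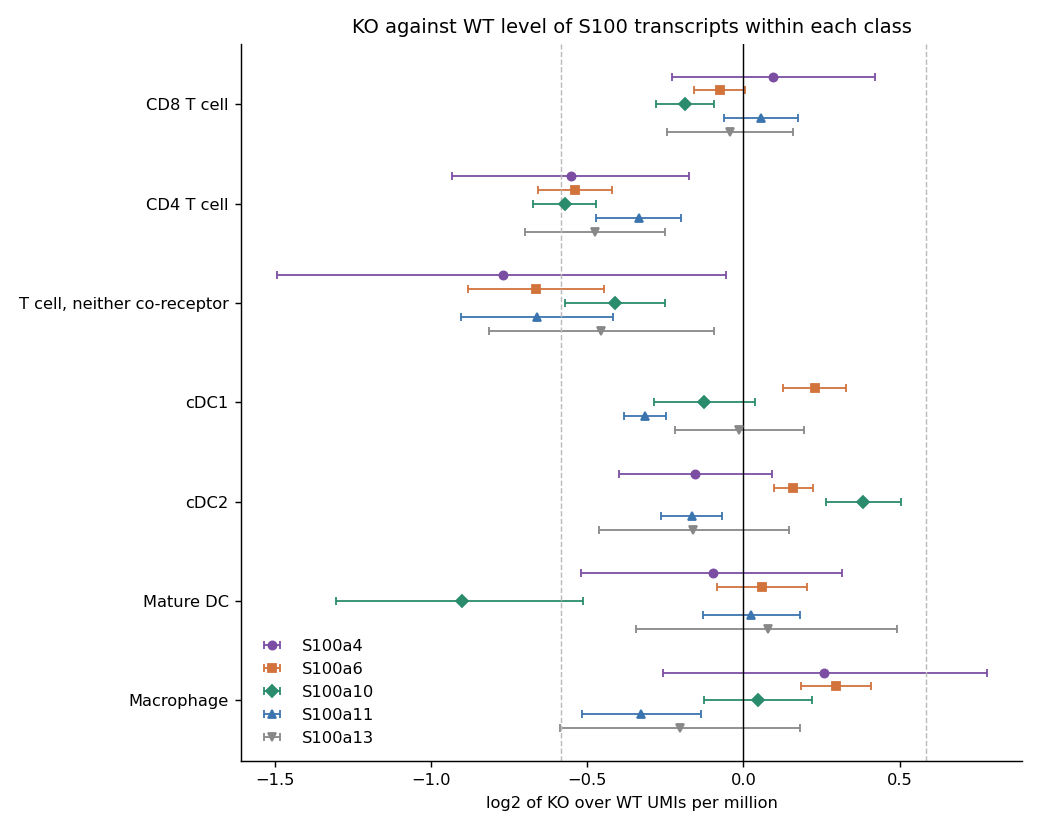
Log2 of the KO over WT level of 5 S100 transcripts in each class with at least 50 cells in both libraries, with 95% counting intervals; the dashed lines mark 1.5-fold and negative values are lower in KO. All members lie below 0 in CD4 T cells and in T cells without a co-receptor UMI, S100a10 lies far below 0 in mature dendritic cells, and S100a4 in cDC1 is left out because it is under 50 CPM.

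Among myeloid classes S100a10 in mature dendritic cells was called lower in KO, with 142 CPM in KO and 265 CPM in WT and a ratio of 0.535 (interval 0.405 to 0.700), where 4.60% of 2542 genes were called lower and 9.05% in either direction. At equal depth 21.4% of KO and 25.6% of WT cells had a UMI of it, and unthinned 33.3% and 43.3%, so most cells of this class had none. T cell markers summed to 3.84 CPM in KO mature dendritic cells (2 of 5 seen, Cd3e, Cd2 and Lat at 0) and 98.1 CPM in WT ones (5 of 5 seen), and monocyte markers to 88.2 CPM in KO (7 of 9 seen, F13a1 and Chil3 at 0) and 235 CPM in WT (5 of 9 seen, Vcan, Fn1, F13a1 and Chil3 at 0). Their part in the S100a10 value was not tested. In cDC2 S100a10 stood the other way, at a ratio of 1.31 (interval 1.20 to 1.42), below the 1.5-fold rule. S100a6 lay above WT in KO macrophages (1.23), cDC1 (1.17) and cDC2 (1.12), with intervals that left out 1. Monocyte markers summed to 9002 CPM in KO and 5793 CPM in WT macrophages (9 of 9 seen in both), to 4326 CPM in KO cDC2 (9 of 9 seen) and 2986 CPM in WT cDC2 (8 of 9 seen, Chil3 at 0), and to 1469 CPM in KO and 1500.2 CPM in WT cDC1 (6 of 9 seen in both, Vcan, F13a1 and Chil3 at 0). Their part in the S100a6 values was not tested. S100a11 lay below WT in KO macrophages (0.798) and cDC1 (0.804). No member was called in cDC1, where 4.14% of genes were, or in cDC2, where 10.3% were.

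Binding partners and receptors of the family were read from lists beside the members. None of the 9 further S100 family genes on the list reached 50 CPM in a compared class; S100a2 was not on it. Of 8 annexins, 5 were measured in each of CD8 T cells, CD4 T cells and T cells without a co-receptor UMI, and up to 8 in the myeloid classes. Of these 7 classes, annexins were called in KO T cells without a co-receptor UMI alone, where Anxa5 (ratio 0.666) and Anxa6 (0.666) were lower, 2 of 5 measured annexins beside 9.23% of all measured genes. In the conventional CD4 state, with 20.2% of all genes called in either direction, Anxa2 was called higher, at 752 CPM in KO and 417 CPM in WT (ratio 1.80). Of the 8 intracellular partners, 5 were measured in every class, and of these 1 was called in CD8 T cells (12.1% of all genes), 2 in CD4 T cells (9.68%), 3 in T cells without a co-receptor UMI (13.9%), 1 in macrophages (11.8%) and 1 in cDC2 (10.3%). Cacybp, the S100a6 partner, was called higher in KO CD4 T cells, at 179 CPM in KO and 112 CPM in WT (ratio 1.59, interval 1.28 to 1.998), in KO macrophages (1.55) and in KO T cells without a co-receptor UMI (1.91). Ahnak, a giant scaffold protein that binds the S100a10 and annexin A2 complex, was lower in KO CD4 T cells, at 145 CPM in KO and 221 CPM in WT (ratio 0.657, interval 0.541 to 0.798). In cDC2, where S100a10 was at a ratio of 1.31, Ahnak was called higher, at 451 CPM in KO and 243 CPM in WT (ratio 1.85, interval 1.59 to 2.16). Stip1, a co-chaperone of Hsp70 and Hsp90, was called higher in KO CD8 T cells (ratio 1.95, interval 1.48 to 2.59) and in KO T cells without a co-receptor UMI (1.76). Among receptors of secreted S100 proteins, 3 were measured in CD4 T cells and 1 of them, Bsg, or basigin, was called higher in KO CD4 T cells, at 368 CPM in KO and 227 CPM in WT (ratio 1.62, interval 1.39 to 1.90).

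The list of antigen-experienced T cell genes had 10 of 12 measured in CD8 T cells, with 1 called higher and 3 lower, where 12.1% of all measured genes were called in either direction, while none of the S100 members was called there. Gzmb, encoding granzyme B, was higher, at 1557 CPM in KO and 601 CPM in WT (ratio 2.59, interval 2.39 to 2.81). Itgb1, the beta1 integrin, was lower, at 193 CPM in KO and 345 CPM in WT (ratio 0.560, interval 0.486 to 0.643). Lgals3, encoding galectin-3 (ratio 0.583), and Crip1, a LIM domain protein (ratio 0.610), were also lower. In CD4 T cells 11 of 12 were measured, and Ahnak was the 1 called gene (9.68% of all measured genes were called). In T cells without a co-receptor UMI, where 13.9% of all measured genes were called, 4 of 11 were lower, Itgb1 (0.469), Lgals3 (0.249), Ahnak (0.440) and the chemokine receptor gene Cxcr6 (0.522), and Gzmb was higher (1.63).

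Likeness of profiles was measured by the Pearson correlation of log2(CPM + 10) over 20 profiles of a class in a library, among 5378 genes; the profiles share the same 2 libraries, and r is a description. S100a6 was closest to Ggh (0.89), Zeb2 (0.86) and Mmp19 (0.82), and S100a4 to Mapkapk3 (0.83), Ccrl2 (0.82) and Stx11 (0.81). S100a10 was closest to Shisa5, Arhgdib and Lcp2 (0.94 each). S100a11 was closest to Hmgcs1 (0.89), Ifitm1 (0.86) and Cyb561a3 (0.85), and S100a13 to Hsd11b1 (0.93), D16Ertd472e (0.92) and Rasgrp1 (0.92). S100a8 was closest to Ccl8, S100a9 and Ccl24, and S100a9 to S100a8, Ccl8 and Cxcl3, all through the macrophage profiles. Among members, S100a10 and S100a13 had r = 0.81 and S100a4 and S100a6 r = 0.64.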

How the data were processed

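Each deposited matrix gives the UMI count of a gene in a cell, not normalized, as whole numbers. Cell Ranger 1.3 and the mm10 build are named in the submitters' processing notes, while the matrix header gives software version 3.0.2. The annotation release and the 3′ or 5′ chemistry are not given in the sources used here. Of the 27998 gene IDs, 27645 (98.7%) matched GENCODE on GRCm38, the assembly of mm10.

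The libraries held 1219 KO and 1120 WT barcodes with 11758449 and 9283014 UMIs. Cells with at least 500 UMIs, 300 genes and at most 10% mitochondrial UMIs were kept, which left out 133 KO and 132 WT barcodes. Scrublet at an expected 6% called 3 KO and 5 WT doublets (0.276% and 0.506% of the filtered barcodes), which were removed, and doublets may remain. Clustering used scanpy 1.11.5 (2000 variable genes, 30 components, 15 neighbours, Leiden resolution 1) without S100, Tcf7, antigen receptor and mitochondrial genes. Names came from marker genes, with at least 3 markers each seen in 25% of the cells, and the T cell classes from UMIs of Cd8a, Cd8b1 and Cd4. A cluster of 12 KO and 19 WT cells with T cell and cDC1 markers was left unnamed.

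Counts were summed per class and divided by the class total (CPM), with exact Poisson intervals; ratios have conditional binomial intervals and shares Clopper-Pearson intervals, all 95%. The ratio was computed for all genes of a class and checked on simulated counts. Shares were thinned to 2000 UMIs in 1 seeded draw. With a count of 0, the floor is 3 counts over the group. Named genes are the 7 members, list members called in a class (up to 4 per list) and the 3 genes with the most similar profile. The members and lists were chosen with earlier results of these data known. Alternatives were other weights, scalings, filters, resolutions and gates.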

Additional observations from a re-analysis of the deposited data

Results flagged for a closer look

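For S100a6 the KO to WT ratio pointed in opposite directions between classes, with intervals that left out 1. It was 1.23 in macrophages, 1.17 in cDC1 and 1.12 in cDC2, and 0.688 in CD4 T cells and 0.631 in T cells without a co-receptor UMI. S100a10 did likewise, with a ratio of 1.31 in cDC2, against 0.535 in mature dendritic cells, 0.672 in CD4 T cells, 0.752 in T cells without a co-receptor UMI and 0.879 in CD8 T cells. The difference between classes was not tested, since each genotype has 1 library.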

How the results depend on the processing

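No paired analysis was possible because each genotype has 1 library and no replicate number. With 1 library, no value has a replicate error, and differences between libraries and between genotypes cannot be told apart. Of 36 measured pairs of a member and a class, 4 were called lower in KO: this count was 7 as the mean of the levels of each cell, 1 with totals lacking ribosomal and mitochondrial genes, 7 of 29 pairs at resolution 0.6, 1 of 31 pairs with T cell classes by cluster majority, and 1 without the naive-like cluster, an alternative chosen after seeing the data. Of the 4 pairs as reported, 3 were in T cells without a co-receptor UMI, where 9.23% of all measured genes were called lower. The remaining 1 was in mature dendritic cells, where 4.60% were. The 1 pair called higher, S100a8 in the macrophage cluster, was called in 0 pairs as the mean of the levels of each cell, at resolution 0.6 (where the macrophage class was not compared) and without the top cell, and in 2 pairs at a minimum of 1000 UMIs. Its log2 ratio of 0.73 turned to -0.15 as the mean of the levels of each cell and to -0.29 without the top cell, and was 1.21 without cells of at least 2 neutrophil markers, also added after seeing the data. S100a9 there had a log2 ratio of -0.13, which became -0.68, -1.79 and 0.69 under the same alternatives. At a minimum of 1000 UMIs S100a8 stood at 4.43 and S100a9 at 2.36. Pathway genes called numbered 22 over the classes, and 12 at a floor of 200 CPM. Of all measured genes, 4.14% (cDC1) to 13.9% (T cells without a co-receptor UMI) were called at the floor of 50 CPM. At 200 CPM these shares were 2.98% and 12.2% in the same 2 classes. Fewer genes were tested at the higher floor, 698 instead of 2743 in CD8 T cells. Of 65 values of the members in CD4 T cells under alternatives, 65 were below 0 on the log2 scale (-0.84 to -0.18), and S100a6 was called lower there in 4 of them: at 1000 UMIs, at both other resolutions and without the top cell, a KO cell with 17.4% of its UMIs; S100a4 was called lower there in 4 (mean of the levels of each cell, 1000 UMIs and both other resolutions) and S100a10 at resolution 0.6. In CD8 T cells 42 of 65 values were below 0 (-0.30 to 0.43). Of 571 log2 values, 527 lay inside the reported interval. Where causes are not named, the cause was not tested.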
